A study of Mus musculus with 16 samples.

Results

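The *Morc* genes encode the MORC family of nuclear ATPases, and 4 of them were followed here through the ATAC-seq peak lists of mouse male germ cells: *Morc1*, *Morc2a*, *Morc2b* and *Morc3*. They were taken by name, out of 21887 protein-coding genes on chromosomes 1 to 19, X and Y, and each was examined over its annotated bounds plus 10 kb on each side. ATAC-seq uses a transposase to insert adapters into open DNA, so a peak marks a stretch of accessible chromatin. The windows held 32 of the 302829 peaks of the 6 distinct lists. Peaks that overlapped between lists were joined into regions, which gave 9 regions in the windows and 107032 in the whole series.

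The cells were gonocytes, the germ cells that a male carries from fetal life to shortly after birth, from testes of mice with the *Mvh*-Venus transgene. At each of 4 stages, E13.5 and E16.5 before birth (embryonic days) and P0 and P3 after it (postnatal days), 2 samples were *Morc1* (+/-), written het, and 2 were *Morc1* (-/-), written KO. The series thus holds 16 samples in 8 groups, all of them with at least 1 mutant *Morc1* allele, and no wild-type group was analysed here. The labels do not describe the *Morc1* allele. One list of peak positions stands for each group, with no height, score or p-value per peak. The het and KO lists were identical in every row at P0 and again at P3, so each pair was used once, without a genotype, and genotypes were compared at E13.5 and E16.5. Since no list is given for a single sample, no replicate spread can be had and no comparison below has a test. Depth and the calling threshold also decide whether a peak is listed, and both are unknown. The lists held 39559 to 67258 peaks. Of 6 germ cell marker genes, 4 to 5 had a peak within 1000 bp of a start site or gene end in each list, against 1 to 2 of 10 somatic marker genes. Over all protein-coding genes with a start site in the reference, the share was 60.0% (P3) to 63.8% (P0), so 4 of 6 is near it. The germ cell gene *Tdrd1* had such a peak in no list and *Nanos3* in E13.5 KO alone. Of the somatic genes, *Cyp11a1* had one in all 6 lists and *Wt1* in 5.

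MORC proteins share a GHKL-type ATPase domain and a CW-type zinc finger, close around DNA as dimers when they bind ATP, and take part in gene silencing and chromatin compaction. MORC1 is a germ cell protein needed to keep transposons silent in the male germ line and for male fertility. MORC2, the product of *Morc2a* in the mouse, works with the HUSH complex in silencing, and *Morc2b* is a related mouse gene needed for meiosis. MORC3 binds histone H3 methylated on lysine 4 through its CW domain and gathers at PML nuclear bodies.

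The promoter sequences of *Morc2a*, *Morc2b* and *Morc3* are shown first, because the results turn on whether a peak lay over them. They are RefSeq sequences of assembly GRCm38.p6, written 5′ to 3′ along the gene's strand, from 250 bases before to 50 bases after a start site. In the *Morc2a* promoter (chr11:3649187-3649486, plus strand) and in the promoter of the lower start of *Morc2b* (chr17:33139634-33139933, minus strand), capitals mark the stretch that the sequences have in common. In the *Morc3* promoter (chr16:93831871-93832170, plus strand), capitals mark the motif matches described further on.
Morc2a: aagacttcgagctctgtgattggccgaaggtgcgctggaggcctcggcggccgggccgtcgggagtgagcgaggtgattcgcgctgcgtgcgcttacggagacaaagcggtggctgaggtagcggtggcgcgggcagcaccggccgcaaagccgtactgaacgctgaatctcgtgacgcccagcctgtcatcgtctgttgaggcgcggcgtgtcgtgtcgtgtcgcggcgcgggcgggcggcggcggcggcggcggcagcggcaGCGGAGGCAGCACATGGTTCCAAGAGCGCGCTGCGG
Morc2b: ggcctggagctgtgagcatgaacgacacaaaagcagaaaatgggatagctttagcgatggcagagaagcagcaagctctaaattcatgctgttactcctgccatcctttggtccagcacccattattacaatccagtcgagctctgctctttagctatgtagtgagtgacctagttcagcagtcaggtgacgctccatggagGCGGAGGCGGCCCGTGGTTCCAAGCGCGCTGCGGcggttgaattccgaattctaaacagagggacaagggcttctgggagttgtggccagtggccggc
Morc3: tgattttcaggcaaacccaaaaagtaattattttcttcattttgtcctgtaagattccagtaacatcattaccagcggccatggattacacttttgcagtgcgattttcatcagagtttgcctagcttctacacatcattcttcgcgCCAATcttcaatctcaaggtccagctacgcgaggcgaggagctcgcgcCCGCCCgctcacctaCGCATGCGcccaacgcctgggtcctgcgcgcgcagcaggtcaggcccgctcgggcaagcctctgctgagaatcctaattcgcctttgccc

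Among the members, 3 had the same outline: *Morc1*, *Morc2a* and *Morc3* carried a peak at the start of the gene in all 6 lists. *Morc2b* carried one in 3 lists, E16.5 het, E16.5 KO and P0, and in none of the other lists. Over all 17492 protein-coding genes with a start site in the reference, 55.0% had a peak within 1000 bp of a start in all 6 lists and 32.2% had one in no list. List by list, a start peak was found at 3 of 4 members in E13.5 het (60.5% of all genes), E13.5 KO (60.9%) and P3 (60.0%), and at 4 of 4 in E16.5 het (61.5%), E16.5 KO (62.3%) and P0 (63.8%). A start peak in exactly the lists of *Morc2b* was found at 101 genes, or 0.577%. *Morc1* has no start entry in the table and was judged by its outer ends, for which the share of genes with a peak in all 6 lists was 52.0%. The 3 members with a constant start peak were therefore in the commonest class, and *Morc2b* was in a small one. Every pattern with a peak in some lists but not all was small, the largest being P0 alone at 1.33%.

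**Figure D1:**
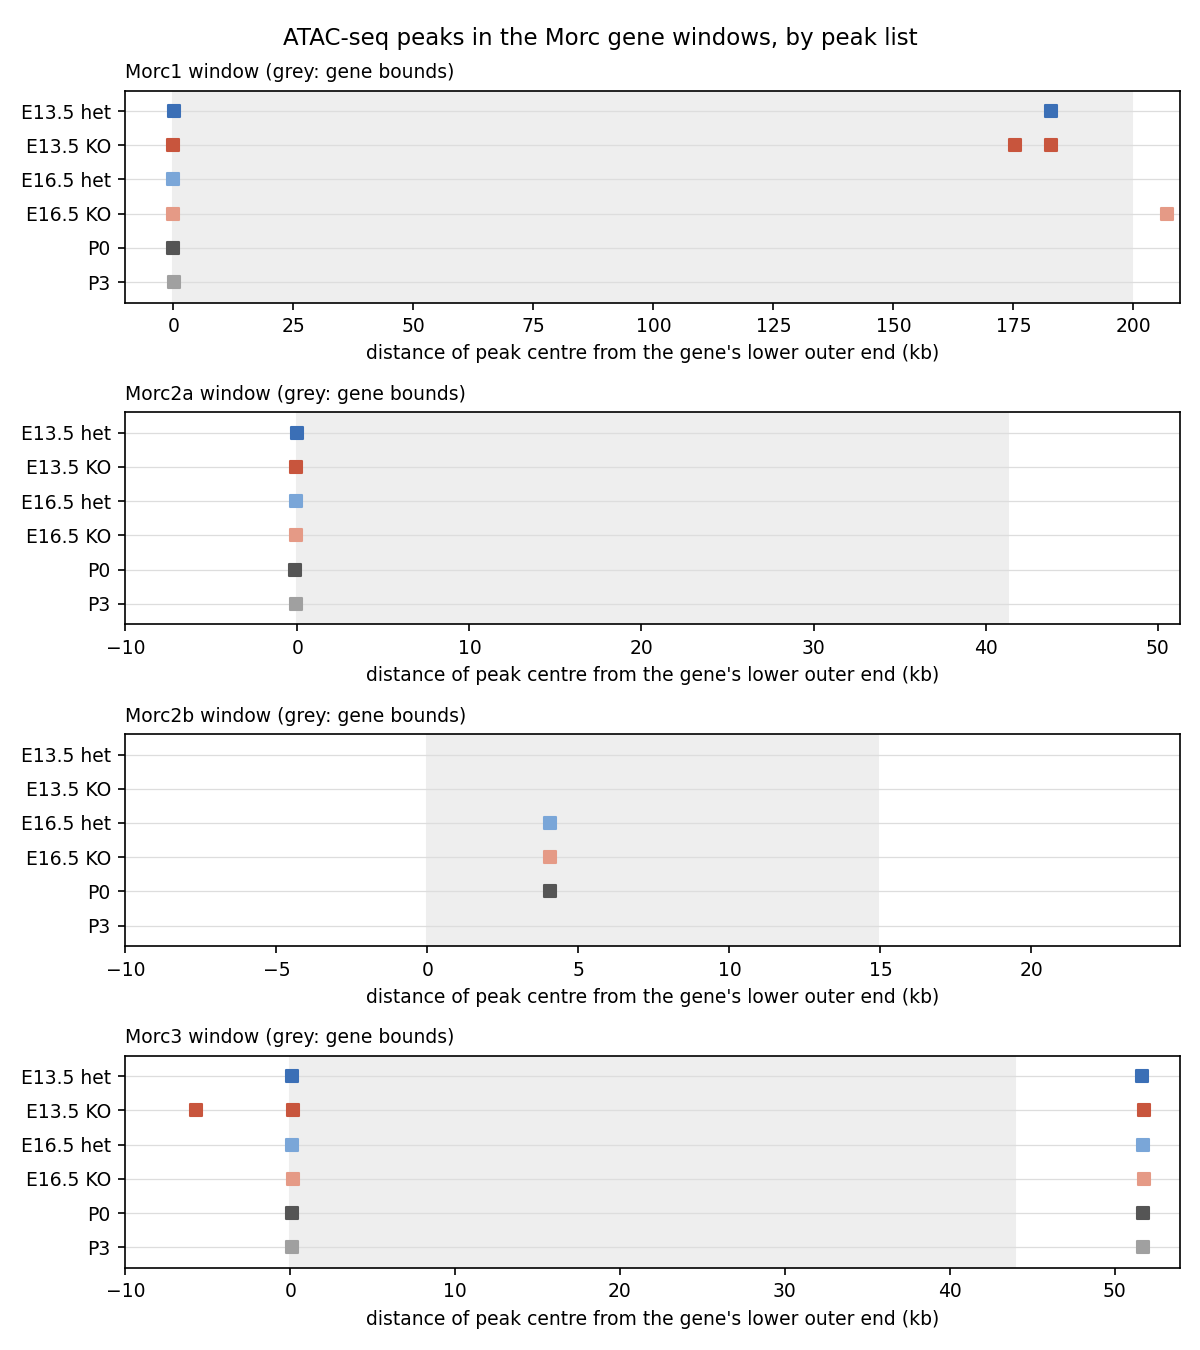
ATAC-seq peaks in the 4 *Morc* gene windows; each square is 1 peak, placed by the distance of its centre from the gene's lower outer end in kb, with 1 row per peak list and the gene bounds in grey. *Morc1*, *Morc2a* and *Morc3* have a peak at the lower end in all 6 rows, and *Morc2b* has its single peak in the rows of E16.5 het, E16.5 KO and P0.

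*Morc1* (gene ID 17450) spans chromosome 16, 48431237 to 48630905 in GRCm38, 200 kb. Its window held 2 peaks in E13.5 het, 3 in E13.5 KO, 1 in E16.5 het, 2 in E16.5 KO, 1 at P0 and 1 at P3. The constant peak lay over the lower outer end, and 362 bases, from 48431048 to 48431409, were inside it in every list. Its centre was 25 bp above that end in E13.5 het and 61 bp above it at P3. It was 57 bp below in E13.5 KO, 40 bp below in E16.5 het, 42 bp below in E16.5 KO and 78 bp below at P0. The peak was thus called in KO cells at both stages, overlapping that of het cells. The allele is not described, so the peak does not check the genotype label.

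The other 3 regions of the *Morc1* window were each confined to 1 stage. A region at 48613763 to 48614293, inside the gene and across the upper outer end of the long non-coding RNA gene *Gm41458*, was present in E13.5 het and E13.5 KO and in no later list. The lists of later stages had no peak within 23.6 kb of it. Regions found in the E13.5 lists of both genotypes and nowhere else made up 6.93% of all regions. A further peak inside *Morc1* and *Gm41458*, at 48606420 to 48606920, was in the E13.5 KO list alone, and the nearest E13.5 het peak was 6.87 kb away. The fourth, at 48637905 to 48638405, lay 207 kb above the lower end, beyond the upper end of the gene and in no annotated gene, and was in the E16.5 KO list alone. The nearest E16.5 het peak to it was 17.4 kb away.

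Between the peak at the lower end and the first of these regions, no list had a peak over 175 kb. Of 107011 gaps between neighbouring regions of the series, 618 (0.578%) were as long, and the median gap was 13.8 kb. Per 100 kb, the *Morc1* window held 0.455 to 1.37 peaks, against medians of 2.69 to 3.42 over all gene windows. Long windows hold fewer peaks per base. Among the 993 windows at least as long as that of *Morc1*, the median was 1.04 to 1.29 peaks per 100 kb, and 11.4% (P0) to 35.4% (E13.5 KO) held as few peaks as *Morc1* or fewer. In E13.5 KO, the *Morc1* density of 1.37 was above the median of 1.16 for windows of that length, and in the other lists it was below it.

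*Morc2a* (gene ID 74522) spans chromosome 11, 3649189 to 3690477, and its window of 61.3 kb held a single region with exactly 1 peak in each list. The region lay at 3648825 to 3649441, and its peaks had 385 bases in common. RefSeq places a start of *Morc2a* at 3649437 and the start of the long non-coding RNA gene *Tug1*, on the opposite strand, 623 bp upstream of it at 3648814. The centre of the peak lay between these divergent starts in every list, and in E13.5 het its end, at 3649441, also passed the *Morc2a* start. The centre was 246 bp upstream of the *Morc2a* start in E13.5 het and 343 to 362 bp upstream in the other 5 lists. Over all genes, the quartiles of this distance were at most 122 bp upstream and 94 bp downstream in any list. Measured from the start at 3649437, the *Morc2a* centre thus lay outside them in every list. This depends on the start used. The annotated bounds begin at 3649189, close to the centres (3649191 in E13.5 het, 3649075 to 3649094 in the other 5 lists). Measured from that end, every centre would lie inside the quartiles of its list. From these lists, openness of the *Morc2a* and the *Tug1* promoter cannot be told apart. The second listed start, at 3658672, had no peak within 1000 bp in any list.

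*Morc2b* (gene ID 240069) spans chromosome 17, 33135588 to 33150499, and its window of 34.9 kb held 1 region, at 33139391 to 33139909. The peak lay at 33139409 to 33139909 in E16.5 het, 33139396 to 33139896 in E16.5 KO and 33139391 to 33139891 at P0. It covered the lower of the 2 listed starts, at 33139683 on the minus strand. The centre was 24 bp downstream of this start in E16.5 het, 37 bp in E16.5 KO and 42 bp at P0, and the peak starts differed by 18 bp over the 3 lists. In the E13.5 het, E13.5 KO and P3 lists the nearest peak was 46.5 kb away, so no neighbouring peak stood in its place. The upper start, at 33148749, had no peak in any list. Another long non-coding RNA gene, *Gm52288*, starts 348 bp upstream of the open *Morc2b* start on the opposite strand, outside the peak. Both genotypes had the *Morc2b* peak at E16.5 and neither had it at E13.5. The 3 lists with the peak were also the longest, at 53687 peaks (E16.5 het), 57117 (E16.5 KO) and 67258 (P0). The lists without it held 40448 (E13.5 het), 39559 (E13.5 KO) and 44760 (P3). Stage and list length thus cannot be told apart for this peak, and the part of list length was not tested. Of all gene windows, 1.27% held peaks in exactly these 3 lists, and 6.28% of all regions of the series had this pattern.

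*Morc3* (gene ID 338467) spans chromosome 16, 93832121 to 93876077, and its window held 2 peaks in each list and 1 more in E13.5 KO. The start peak, at 93831971 to 93832552, lay mostly downstream of the start. Its centre was 100 bp downstream in E16.5 het, 103 bp at P0, 112 bp at P3, 133 bp in E13.5 het, 150 bp in E13.5 KO and 181 bp in E16.5 KO. The *Morc3* centre lay outside the quartiles over all genes in every list, the upper being at most 94 bp downstream. The *Morc3* start is also the lower end of its annotated bounds. The start of the long non-coding RNA gene *Gm30881*, on the opposite strand, lies 971 bp downstream of the *Morc3* start, so these genes overlap head to head. The second constant region, at 93883507 to 93884135, covered the start of the neighbouring gene *Chaf1b*, which encodes a subunit of the histone chaperone CAF-1, and belongs to the window only through its margin. The E13.5 KO peak, at 93826129 to 93826629, lay 5.99 kb below the *Morc3* start and inside *Gm30881*. The nearest peak of any other list was 5.34 to 5.42 kb away.

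**Figure D2:**
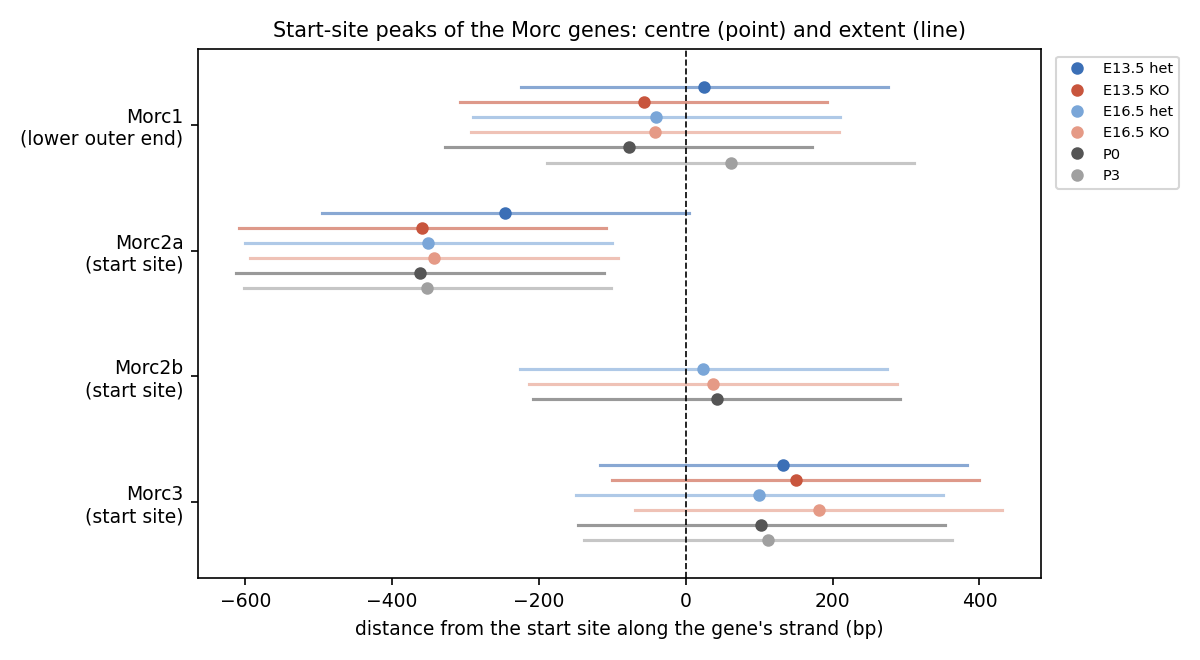
Centre (point) and extent (line) of the start peaks of the *Morc* genes in each peak list, as the distance in bp from the start site along the strand, or from the lower outer end for *Morc1*, whose strand is not in the table. *Morc2a* peaks lie upstream of the start, *Morc3* peaks have centres 100 to 181 bp downstream, and *Morc2b* has peaks in 3 lists.

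The position of the start peaks was compared between genotypes and stages. At E13.5 the KO peak began 82 bp below the het peak at *Morc1* and 113 bp below it at *Morc2a*, and 17 bp above it at *Morc3*. The median distance over all 31822 peaks shared at E13.5 was 26 bp, and 9.64% of them were at least as far apart as those of *Morc2a*. At E16.5 the distances were 2 bp at *Morc1*, 8 bp at *Morc2a*, 13 bp at *Morc2b* and 81 bp at *Morc3*, beside a median of 34 bp over 43678 shared peaks. At least 81 bp apart were 22.4% of these. Over all 6 lists, the peak starts spread over 139 bp at *Morc1*, 116 bp at *Morc2a* and 81 bp at *Morc3*, and the median over 17464 regions with 1 peak in every list was 99 bp. The members' spreads lay on both sides of that median, and how far such distances differ between replicate samples is unknown.

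Peaks found in 1 genotype only were counted next. At E13.5 the 4 windows held 2 peaks with no overlap in het cells, 1 in *Morc1* and 1 in *Morc3*, and 0 het-only peaks. Of all gene windows, 19.9% held at least 1 KO-only peak at E13.5 and 18.9% at least 1 het-only peak. At E16.5 the windows held 1 KO-only peak, that beyond *Morc1*, and 0 het-only peaks, where 23.4% and 18.0% of all gene windows held one. *Morc2a* and *Morc2b* had no peak private to a genotype at either stage. Each of the 3 private peaks was in a single list, as were 10.6% of all E13.5 KO regions and 8.61% of all E16.5 KO regions. Over the whole lists, 46.0% of E13.5 KO-only peaks and 63.4% of E16.5 KO-only peaks were found at another stage, and none of the 3 was. With 4 windows, these counts do not set the *Morc* genes apart from the background, and the *Morc1* window is also the longest of them.

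Between stages, the constant regions carried most of the count. Of the 5 member peaks in E13.5 het cells, 4 were found at E16.5 in het cells, beside 56.7% of all E13.5 het peaks (95% Wilson interval 56.2 to 57.2, counting error only). In KO cells 4 of 7 were found at E16.5, beside 60.6% (interval 60.2 to 61.1). All 5 member peaks of E16.5 het cells and 5 of 6 of E16.5 KO cells were found at P0, beside 78.0% and 76.8% of all peaks. From P0 to P3, 4 of 5 were found, beside 55.7%, and the missing one was that of *Morc2b*. All 4 member peaks of the P3 list had been present at P0, beside 83.6% of all P3 peaks. These 4 were the start peaks of *Morc1*, *Morc2a* and *Morc3* and that of *Chaf1b*.

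The promoters with a peak in more lists also held more CpG dinucleotides, the sites of DNA methylation. The *Morc2a* promoter is 70.3% G and C, with 46 CpGs and a CpG observed/expected ratio of 1.30, a value that 0.0670% of 32851 RefSeq promoters reach. The *Morc3* promoter is 52.7% G and C, with 20 CpGs and a ratio of 0.997 (reached by 6.10%). The *Morc2b* promoter with the E16.5 and P0 peak is 54.0% G and C, with 13 CpGs and a ratio of 0.602 (reached by 35.7%). The promoters at the second *Morc2a* start and the upper *Morc2b* start have 28.3% and 37.7% G and C and 0 CpGs, and no list had a peak over them. Of all promoters with a ratio of at least 0.6, 71.4% were overlapped by a peak in all 6 lists and 12.6% in none. Below 0.6 the shares were 9.29% and 76.4%. The *Morc2a*, *Morc3* and lower *Morc2b* promoters fell in the first class, *Morc2b* at its edge, and *Morc2b* differed from most of that class in having a peak in 3 lists. The promoters without CpGs fell in the second class. The *Morc4* promoter, at a ratio of 0.638, had a peak in all 6 lists. With so few promoters, this is a description.

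**Figure D3:**
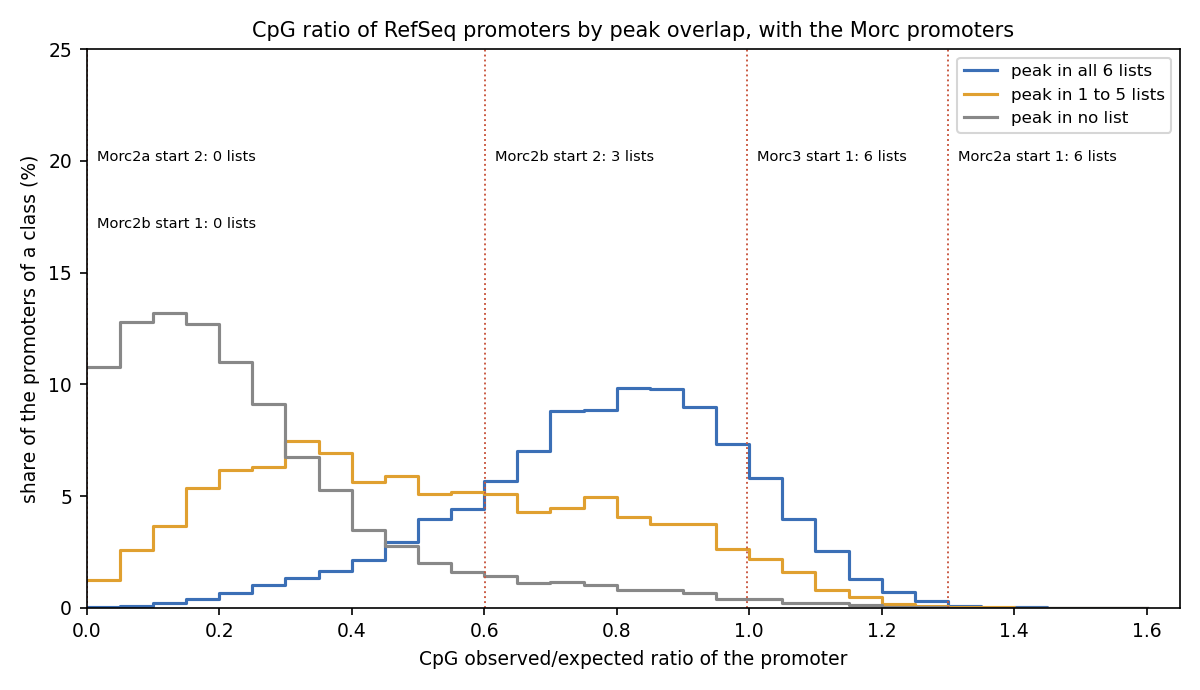
Distribution of the CpG observed/expected ratio over RefSeq promoters, as the percent of promoters in each class (peak in all 6 lists, in 1 to 5, or in none) per bin of the ratio; dotted lines mark the 5 *Morc* promoters with the number of lists that have a peak over each. *Morc2a* (1.30) and *Morc3* (0.997) have a peak in 6 lists, *Morc2b* (0.602) in 3, and the promoters at a ratio of 0 in none.

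In the promoters overlapped by a peak, *Morc2a* and *Morc2b* share a short stretch of sequence. In a local alignment of the *Morc2b* promoter with 32849 promoters of other genes, *Morc2a* had the highest score (46, the next being 42 for *Gm40218*). The aligned stretch has 36 columns, of which 31 are identical, 3 are mismatches and 2 are gap positions. In *Morc2b* it begins 48 bases before the start site, and in *Morc2a* 14 bases after it, running to the end of the 300 bases compared. It is printed in capitals above. The *Morc2a* peaks covered 139 to 255 of the 300 promoter bases, from the upstream side, and the *Morc2b* peaks 258 to 276. The capitals in *Morc2a* thus begin downstream of the peak of every list, as the E13.5 het peak, which reached farthest, ended at 3649441, while those in *Morc2b* lay within the 3 peaks. Over these promoters *Morc2a* had a peak in all 6 lists and *Morc2b* in 3.

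A set of 7 motifs was searched on both strands of the promoters. The *Morc2a* promoter holds CCAAT (NF-Y), present in 37.4% of all promoters, 232 bases before the start, and 2 overlapping matches of GGGCGG (GC box, 35.7%) 19 and 15 bases before it. The *Morc3* promoter holds CCAAT 103 bases before the start, GGGCGG 55 bases before it and GCATGCG (NRF1, 3.58%) on both strands, overlapping, 40 and 39 bases before it. Both *Morc2b* promoters and the promoter at the second *Morc2a* start hold none of the 7. The other motifs searched were CACGTG (E-box, 7.15%), GGCGGGA (E2F, 11.3%, which can overlap the GC box), CCGGAAG (ETS, 8.86%) and TGACGTC (CRE, 3.21%). At least 1 of the 7 was found in 66.8% of all promoters. A match is a run of letters and no measured binding. Each of *Morc2a*, *Morc2b* and *Morc3* has the start of another gene on the opposite strand within 1000 bp, a long non-coding RNA gene in each case. *Morc4*, searched in the same way, has none. A start of any kind of gene on the opposite strand within that distance was found for 16.2% of protein-coding genes.

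A fixed set of genes related to the *Morc* genes, by family or by theme, was examined in the same way. All 6 genes of the HUSH and SETDB1 group, whose products act in silencing through the histone mark H3K9me3 (*Mphosph8*, *Tasor*, *Pphln1*, *Setdb1*, *Atf7ip* and *Trim28*), had a start peak in all 6 lists, like *Morc2a*. Of 8 genes of transposon methylation found in the table, 4 had a start peak in all 6 lists (*Dnmt3a*, *Piwil4*, *Mov10l1* and *Mael*), 3 in 3 to 5 lists and 1, *Piwil2*, in none. Of these 8, *Piwil2* and *Spocd1* (5 lists) have no start entry and were judged by their outer ends, like *Morc1*. *Tdrd9*, a helicase gene of the piRNA pathway, had start peaks in the same 3 lists as *Morc2b*, E16.5 het, E16.5 KO and P0. *Dnmt3l*, the cofactor of DNA methylation in germ cells, had them in those lists and in E13.5 KO. The *Dnmt3l* window held 2 peaks in each E13.5 list, with 0 KO-only and 0 het-only peaks. The E13.5 KO start peak thus overlapped an E13.5 het peak that fell outside the distance cut around the start, and it is no peak private to KO cells. Of the genes of nuclear bodies, where MORC3 gathers, *Daxx* and *Atrx* had a start peak in all lists and *Pml* and *Sp100* in none. *Smchd1*, another chromatin gene with a GHKL-type ATPase, had one in all 6. Over these and *Morc4*, 14 of 20 related genes had a start or gene-end peak in all lists. All 14 have a start entry, and the share over all genes with one was 55.0%. The 20 also include *Piwil2* and *Spocd1*, judged by their outer ends, for which the share was 52.0%. KO-only peaks lay in the windows of 6 of the 20 at E13.5 (19.9% of all gene windows) and het-only peaks in 6 (18.9%). At E16.5 the numbers were 6 (23.4%) and 0 (18.0%), and with 20 genes nothing particular to them is read from these counts.

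*Morc4*, the remaining *Morc* gene, lies on chromosome X, 139821635 to 139871692, and its start peak was in all 6 lists. A second region inside the gene, at 139832442 to 139833006, had a peak in E13.5 KO (139832506 to 139833006) and in E16.5 KO (139832442 to 139832942), and in no other list. It was the one region of the 5 *Morc* windows found in the KO lists of both stages and absent from both het lists. Regions with this pattern numbered 284 of 107032 (0.265%), and those found in both het lists and no other numbered 175 (0.164%).

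Genes with the same counts of peaks over the 6 lists were sought for each member. For *Morc1*, 18 of 21630 genes had identical counts in all lists, and the closest in window length were *Add3*, *Nrf1* and *Ndufs4*. Their windows, of 127, 125 and 120 kb, were still much shorter than the 220 kb of *Morc1*. *Morc2a*, with 1 peak in every list, had the same counts as 2235 genes (10.3%), among them *Dusp10* and *Ccdc172*. *Morc2b* matched 143 genes (0.661%), led by *Klrk1*, *Lyzl1* and *Oog4*. *Morc3* matched 116 genes (0.536%), led by *Appbp2*, *Kdm4a* and *Cep250*. The likeness is in small counts over 6 lists.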

How the data were processed

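ATAC-seq had been carried out on 16 samples in 8 groups of 2, grouped here by their titles. The authors deposited 1 peak list per group, holding chromosome, start and end and no measured value. Nearly all peaks are 501 bp wide. Per the submitters' processing notes, bcl2fastq 2.20, cutadapt 1.18, Bowtie2 2.3.4.1, deepTools 3.5.0, HOMER 4.10 and build mm10 (GRCm38) were used; the role of each, the peak threshold, the handling of duplicates and the pooling of samples are not given in the sources used here. Depth is unknown.

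Positions are 1-based. Gene bounds, start sites and promoters came from RefSeq tables of GRCm38.p6; exons were not used. Of the members, 3 of 4 had a start entry, and *Morc1* was judged by both outer ends. Peaks were shared if they overlapped by at least 1 bp. The members and lists were chosen with earlier results of these data known. Named genes were the members, listed related genes (*Dnmt3c* was not matched) and, per member, the 3 genes with the most similar peak counts, ties broken by window length (1 of these genes is not reported here). Local alignment scored 2 for a match, -3 for a mismatch, -5 for opening a gap and -2 for extending it (Biopython 1.88). Overlap counts equalled those of bedtools 2.31.1 in 4 comparisons and were tested on simulated data. Computations used Python 3.11.15, pandas 2.3.3 and numpy 2.4.6.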

Additional observations from a re-analysis of the deposited data

How the results depend on the processing

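No paired analysis was possible because the lists hold no values of single samples; leaving out replicates was not run for the same reason, and a stricter threshold was not run because peaks carry no score. Of 83 recomputed counts for 31 results, 76 were within 1.5 times the reported count and 7 were not. None of the 38 counts under a reciprocal overlap of 50% or with peaks within 500 bp counted as shared moved past that factor, nor did the 12 under start windows of 500 or 2000 bp. The 7 came from the window margin, which sets how much sequence is searched. With 5 kb or none, the E13.5 KO-only count fell to 1 (that inside *Morc1*) and the E16.5 KO-only count to 0. With 20 kb the E16.5 KO-only count was 3, the E13.5 het-only count 1, and the E16.5 KO list had 10 peaks in the windows. Of 72 recomputed peak counts of single genes, 19 moved past that factor, all through the margin. Without a margin or with 5 kb, the *Morc3* count was 1 in every list, since the *Chaf1b* peak and, in E13.5 KO, the private peak were left out. With 20 kb the *Morc2a* count was 2 in E13.5 het and at P0 and 3 in E16.5 het and E16.5 KO.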
